A study of Mus musculus with 2 samples.

Results

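Blood flow is sensed by endothelial cells (EC) as shear stress, and the 6 genes described here are among the best known parts of that response: Klf2 and Klf4, which encode Krüppel-like transcription factors, Nos3, Thbd and Edn1, which encode an enzyme, a receptor and a peptide that act on vessel tone or clotting, and Fam38a, the older symbol of Piezo1, which encodes a mechanosensitive ion channel. They were taken by symbol from a table of 12684 genes, and all 6 had an entry. The EC were sorted from E10.5 mouse embryos, from the AGM (aorta-gonad-mesonephros), where blood stem cells arise from hemogenic endothelium (HE). By the labels, GFP-depleted EC were the GFP-negative cells within the CD31+CD117-CD45- gate of embryos transgenic for Runx1+23GFP, a reporter in which the +23 enhancer of Runx1 drives GFP, and their genotype is labelled GFP+. Bulk EC came from the same CD31+CD117-CD45- gate in littermates of WT genotype, without selection on the reporter, while both samples carry the strain label Runx1+23GFP. In the study's text the methods match these labels, while its Results describe GFP-positive HE set against vascular EC. The names of the labels are kept here, and which cells each library holds was not settled by the values. Each group was 1 library, and how many embryos went into each is not given in the sources used here. Any difference between the libraries therefore has no replicate check, and no test or SD is given. In sorted populations, fewer cells of a type and less RNA per cell cannot be told apart.

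In laminar flow, the kinases MEK5 and ERK5 activate MEF2 factors, which switch on Klf2 and Klf4. In EC these factors raise Nos3 and Thbd and lower Edn1, so that a vessel under steady flow is dilated and resists clotting. In the embryo, circulation and the nitric oxide made by the enzyme of Nos3 promote the emergence of blood stem cells, as shown in zebrafish and mouse. Piezo1 opens under membrane tension and admits calcium.

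About 14600000 reads were estimated for GFP-depleted EC and 110000000 for bulk EC, from the size of the smallest steps in the values, so the GFP-depleted library sets the precision. Levels are in RPKM, that is read numbers scaled to gene length and library size. Exact 95% intervals take those read numbers as given. They hold the error of counting reads alone. Copies made by PCR do not stand for separate molecules, so the intervals may be too narrow even for that error. The pan-endothelial genes Cdh5 (81.5 in GFP-depleted EC, against 72.9 in bulk EC) and Pecam1 (153.9 in GFP-depleted EC, 154.5 in bulk EC) were high in both libraries. Runx1 was barely above the bottom of the table in each, at 0.62 in GFP-depleted EC, against 0.66 in bulk EC, so its level did not show the depletion that the label implies. Kit, the gene of CD117, on whose absence the cells were gated, was at 13.3 in GFP-depleted EC, against 10.7 in bulk EC, so its RNA was present in both libraries. The CD45 gene Ptprc had no entry.

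All 6 flow-responsive genes were lower in GFP-depleted EC than in bulk EC in the deposited values, by 1.33 to 2.15 fold, but the direction of Klf2 turned once a trend of the values with GC content was subtracted. To be called higher in one library, a gene needed 0.3 RPKM or more in either library and a plain ratio over 1.5. By this rule, 0 of the 6 were called higher in GFP-depleted EC, where 15.3% of all genes were, and 3 of the 6 were called higher in bulk EC, where 23.6% of all genes were. The 3 were Nos3, Edn1 and Fam38a, of which Edn1 alone stayed past 1.5 fold after the GC subtraction (Nos3 was then at 1.39 fold and Fam38a at 1.40). The median log2 ratio of the 6, with GFP-depleted EC on top and 0.3 RPKM added to each level (negative where GFP-depleted EC were lower), was -0.79. Over all genes the median was -0.02, and 51.4% of genes had the lower value in GFP-depleted EC. In the deposited values the folds fell into a group near 1.4, with Klf2, Klf4 and Thbd, and a group near 2.1, with Nos3, Edn1 and Fam38a. No interval of the lower group reached one of the higher group, and within each group every pair of intervals overlapped. The GC subtraction ended this grouping.

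**Figure D1:**
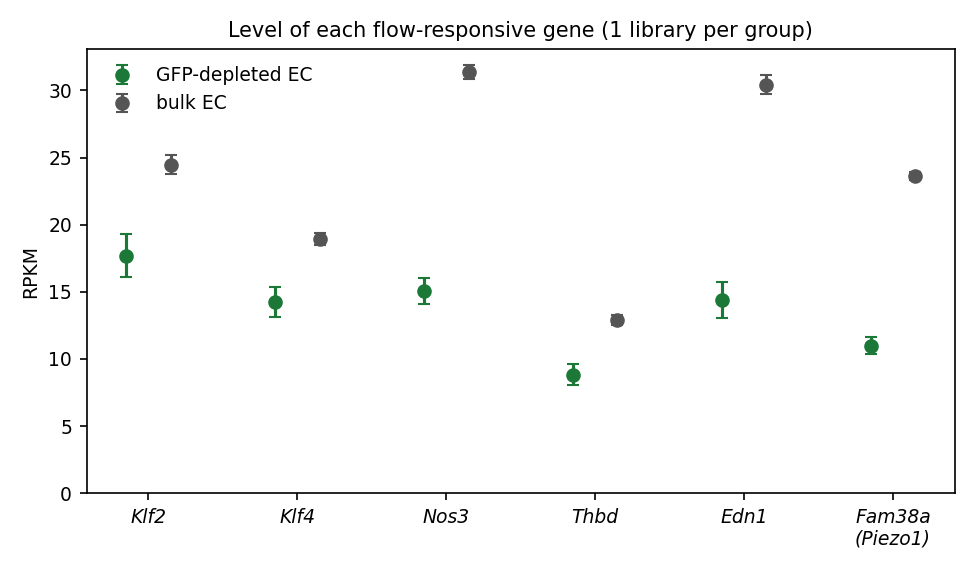
Level in RPKM (y axis, from 0) of each flow-responsive gene (x axis) in GFP-depleted EC (green) and bulk EC (grey), with 1 library per group. Points are deposited values and bars are exact 95% counting intervals, and each green point lies below its grey partner.

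The transcription factor genes differed least. Klf2 (ENSMUSG00000055148, chromosome 8, 74842961 to 74845553, plus strand, mm9) was at 17.7 RPKM in GFP-depleted EC (interval 16.1 to 19.3, about 469 reads), against 24.5 in bulk EC (23.8 to 25.2, about 4880 reads). It was 1.39-fold lower in GFP-depleted EC (interval of the fold 1.26 to 1.53, log2 ratio -0.46). Klf2 was the most abundant of the 6 in GFP-depleted EC, where 67.9% of all genes were below it, and ranked 3 in bulk EC, where 72.0% were. Klf4 (ENSMUSG00000003032, minus strand of chromosome 4, 55540017 to 55545347) was at 14.2 in GFP-depleted EC (13.1 to 15.4), against 18.9 in bulk EC (18.5 to 19.4). Its fold was 1.33 (1.23 to 1.45), with a log2 ratio of -0.40. In the deposited values the balance of both factors was similar in both libraries, with Klf2 over Klf4 at 1.24 in GFP-depleted EC, against 1.29 in bulk EC, but their log2 ratios after GC subtraction lay apart, at 0.35 for Klf2 and -0.12 for Klf4. Neither gene passed 1.5 fold, and no exon of another annotated gene overlapped theirs.

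The promoters of both factors, 250 bases before to 50 bases after the start site, are shown because Klf2 is a textbook target of MEF2. They are from RefSeq on GRCm38.p6, a later build than the mm9 of the values, whose promoter table matched 4 of the 6 genes (Klf2, Klf4, Edn1 and Piezo1). Capitals mark, on either strand, the MEF2 consensus, the CACCC box bound by Krüppel-like factors, the shear stress response element GAGACC and the GATA motif AGATAA, and no marked motifs overlap in these 4 promoters. The Klf2 promoter is chr8:72318812-72319111, plus strand, and that of Klf4 is chr4:55532426-55532725, minus strand.
Klf2: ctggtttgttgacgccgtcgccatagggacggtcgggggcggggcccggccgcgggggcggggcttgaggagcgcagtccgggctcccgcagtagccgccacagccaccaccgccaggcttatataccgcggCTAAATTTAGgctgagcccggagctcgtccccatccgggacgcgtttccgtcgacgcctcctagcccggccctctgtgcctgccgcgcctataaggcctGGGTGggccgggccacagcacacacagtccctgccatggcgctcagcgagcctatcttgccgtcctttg
Klf4: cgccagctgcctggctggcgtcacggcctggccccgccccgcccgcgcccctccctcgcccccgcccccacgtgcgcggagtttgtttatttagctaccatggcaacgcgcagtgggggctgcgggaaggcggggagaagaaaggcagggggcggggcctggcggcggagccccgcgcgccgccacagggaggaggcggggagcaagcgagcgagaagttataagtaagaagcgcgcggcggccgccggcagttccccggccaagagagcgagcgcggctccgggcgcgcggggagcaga
Klf2 held 1 match to the MEF2 consensus, which begins at position -118 from the start and was present in 3.19% of 32851 RefSeq promoters. It also held 1 CACCC box, at position -19, as did 57.5% of all promoters at any position. None of the 4 motifs was in the Klf4 window.

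Nos3 encodes the endothelial nitric oxide synthase, whose product relaxes vascular smooth muscle. Nos3 (ENSMUSG00000028978, chromosome 5, 23870628 to 23890289, plus strand) was at 15.0 RPKM in GFP-depleted EC (14.1 to 16.1), against 31.4 in bulk EC (30.8 to 31.9), from about 909 reads in GFP-depleted EC, against 14213 in bulk EC. The fold was 2.08 (1.95 to 2.23) and the log2 ratio -1.04, and 10.6% of all genes had a lower log2 ratio. It was second among the 6 in GFP-depleted EC and first in bulk EC. Relative to Klf2, the level of Nos3 was 0.85 in GFP-depleted EC, against 1.28 in bulk EC. Of the 4129 exonic bases of Nos3 within the deposited coordinates, 32.2% also lie in exons of genes on the opposite strand, and the use of strand in the counting is not given in the sources used here. Atg9b, an autophagy gene, shares 291 of them and was at 3.49 in GFP-depleted EC, against 4.41 in bulk EC. Gm15587 shares 1040 of them and had no entry, so the part of this overlap in the Nos3 values was not tested.

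Thbd encodes thrombomodulin, the cell surface receptor that turns thrombin into an activator of the anticoagulant protein C. Thbd (ENSMUSG00000074743, minus strand of chromosome 2, 148230202 to 148233924) has a single exon and was the lowest of the 6 in both libraries. It was at 8.82 RPKM in GFP-depleted EC (8.05 to 9.65), against 12.9 in bulk EC (12.6 to 13.3), from about 480 reads in GFP-depleted EC, against 5269 in bulk EC. The fold of 1.46 (1.33 to 1.61, log2 ratio -0.53) stayed just under the threshold, and its interval included 1.5. The deposited level of Thbd relative to Klf2 was 0.50 in GFP-depleted EC, against 0.53 in bulk EC, but the log2 ratios after GC subtraction were -0.47 for Thbd and 0.35 for Klf2.

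Edn1 encodes the precursor of endothelin-1, a vasoconstrictor peptide. Edn1 (ENSMUSG00000021367, chromosome 13, 42396845 to 42403358, plus strand) was at 14.4 RPKM in GFP-depleted EC (13.1 to 15.7), against 30.4 in bulk EC (29.7 to 31.1), from about 449 reads in GFP-depleted EC, against 7141 in bulk EC. The fold was 2.12 (1.93 to 2.34), the log2 ratio was -1.07, and 10.2% of all genes had a lower one. In the deposited values the vasoconstrictor gene differed in the same direction as the vasodilator gene Nos3. The action of Krüppel-like factors on either gene was not tested. The ratio of Edn1 to Nos3 was 0.95 in GFP-depleted EC, against 0.97 in bulk EC, and their intervals overlapped in each library. After GC subtraction their log2 ratios lay apart, at -1.15 for Edn1 and -0.48 for Nos3.

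Fam38a (ENSMUSG00000014444, minus strand of chromosome 8, 125005621 to 125022112) was at 11.0 RPKM in GFP-depleted EC (10.4 to 11.6), against 23.6 in bulk EC (23.3 to 24.0), from about 1234 reads in GFP-depleted EC, against 19886 in bulk EC. The fold was 2.15 (2.03 to 2.28) and the log2 ratio -1.08, lower than that of the other 5 genes. The deposited coordinates cover only the 3′ part of the gene: GENCODE release M1 extends it to 125075229, and 29 of its 43 exon blocks lie within the deposited span. Of the 7668 exonic bases in that span, 31.5% also lie in exons of Ctu2, a tRNA-modifying enzyme gene on the plus strand, listed in the table as 2310061F22Rik. Ctu2 differed in the same direction, at 17.0 in GFP-depleted EC, against 40.0 in bulk EC (2.35 fold). Reads of the shared bases cannot be told apart without strand, and the part of Ctu2 in the Fam38a values was not tested. The paralog Fam38b, now Piezo2, was at 15.6 in GFP-depleted EC, against 16.6 in bulk EC.

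The promoters of Edn1 and Piezo1 were also matched, while none was matched for Nos3 or Thbd. Both windows hold the shear stress response element, read as GGTCTC on the strand printed, a motif first described in a growth factor promoter. Capitals are as above. The Edn1 promoter is chr13:42301226-42301525, plus strand, and that of Piezo1 is chr8:122551280-122551579, minus strand. The Piezo1 window lies at the 5′ end of the gene, outside the deposited span of Fam38a.
Edn1: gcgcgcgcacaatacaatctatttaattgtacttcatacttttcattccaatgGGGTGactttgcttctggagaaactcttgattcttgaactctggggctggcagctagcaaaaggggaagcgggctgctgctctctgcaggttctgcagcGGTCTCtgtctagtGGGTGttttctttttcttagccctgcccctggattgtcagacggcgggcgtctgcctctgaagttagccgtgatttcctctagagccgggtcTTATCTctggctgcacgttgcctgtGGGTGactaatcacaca
Piezo1: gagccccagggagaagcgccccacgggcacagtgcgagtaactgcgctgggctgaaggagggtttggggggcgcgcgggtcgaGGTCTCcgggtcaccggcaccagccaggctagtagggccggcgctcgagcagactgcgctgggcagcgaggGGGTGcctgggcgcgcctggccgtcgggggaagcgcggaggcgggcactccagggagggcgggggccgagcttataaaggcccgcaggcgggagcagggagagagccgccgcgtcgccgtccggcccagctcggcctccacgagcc
The element begins at position -98 from the Edn1 start and at -167 from that of Piezo1. It was in 16.4% of all promoters, and the Klf2 and Klf4 windows held none. A link of the motif to the folds was not tested. Edn1 had 3 CACCC boxes and Piezo1 had 1. Edn1 also had 1 GATA motif, at position 9 after the start, which 11.2% of all promoters held.

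Within each library the 6 genes spanned a narrow range of levels. In GFP-depleted EC the order was Klf2, Nos3, Edn1, Klf4, Fam38a and Thbd, where the intervals of Nos3, Edn1 and Klf4 overlapped and the other neighbours were separate. In bulk EC it was Nos3, Edn1, Klf2, Fam38a, Klf4 and Thbd, where Nos3 overlapped with Edn1 and Klf2 with Fam38a. Of 15 pairs, 12 had separate intervals in GFP-depleted EC, against 13 in bulk EC. These intervals leave out any error from gene length, GC content or overlapping exons. The closest protein-coding genes, by distance over the 2 log2 levels and so over 2 libraries only, were Tgfbr2 and Atp5s for Klf2 and Wdr53 and March5 for Klf4. For Nos3 they were Morn2 and BC051227, for Thbd Ski and Cisd3, for Edn1 Prkcsh and Nradd, and for Fam38a Hey1 and Fam176a. Hey1, an arterial Notch target, lay at 11.0 in GFP-depleted EC, against 24.0 in bulk EC, 0.02 log2 units from Fam38a. Between 5 and 28 genes lay within 0.1 log2 units of each of the 6.

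The log2 ratio of the libraries declined with the GC content of the gene, and this bears on the 6 genes unequally. Over the 10382 genes that code for protein with 1 RPKM or more, the rank correlation (Spearman) with exonic GC was -0.38, a description across genes, which are no replicates. Klf2 (61.6% GC), Fam38a (58.6%) and Nos3 (58.2%) belong to the highest of 10 equal bins of GC, whose median log2 ratio was -0.64 and of which 55.5% were called higher in bulk EC. The GC of Fam38a, also used for the subtraction, is that of all its annotated exons. Those within its deposited span have 57.6%, just above the lower edge of that bin, 57.3%. Klf4 (54.9%) and Thbd (51.4%) lie in bins of which 28.9% (Klf4) and 23.5% (Thbd) were called so. Edn1 (46.8%) is the exception, in a bin with a median log2 ratio of 0.11 and of which 14.3% were called higher in bulk EC.

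**Figure D2:**
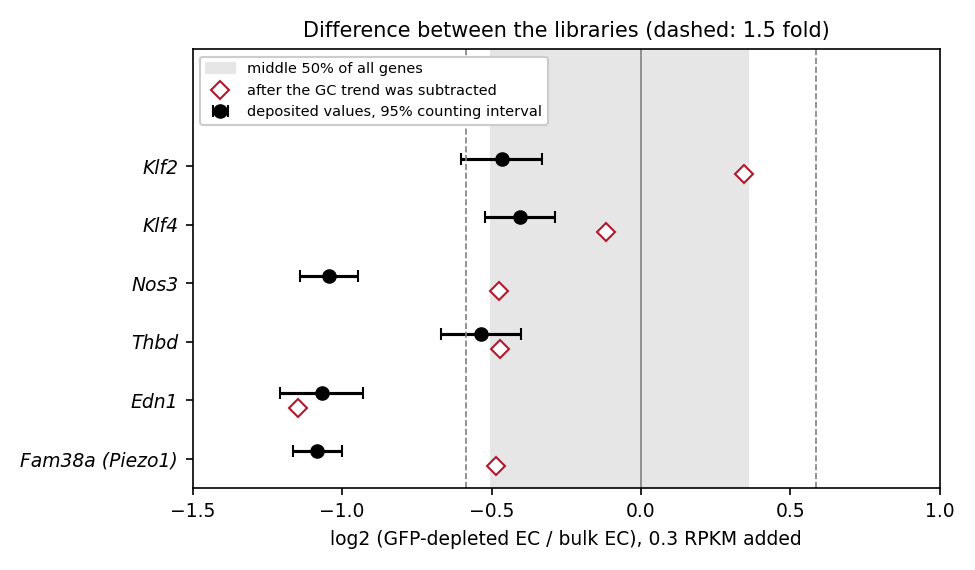
Log2 ratio of GFP-depleted EC over bulk EC (x axis, 0.3 RPKM added) for each gene (rows), as deposited with its 95% counting interval (black) and after subtraction of the GC trend (open red). The grey band holds the middle 50% of all genes as deposited and dashed lines mark 1.5 fold. After subtraction Edn1 alone, at -1.15, stays past the line.

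After the LOWESS trend on GC was subtracted, Edn1 was the only one of the 6 past 1.5 fold, at a log2 ratio of -1.15 (2.22 fold), and 5.95% of all genes had a lower value. Nos3 (-0.48), Fam38a (-0.48) and Thbd (-0.47) then lay close together, at 1.39, 1.40 and 1.39 fold lower in GFP-depleted EC, and Klf4 was at -0.12. Klf2 turned to 0.35, because the trend at its GC content, -0.81, was lower than its own log2 ratio. Of genes with a GC value, 98.4% had less GC than Klf2, so its trend value was read near the end of the fit. After this step 0 of 6 were called higher in GFP-depleted EC, where 16.0% of all genes were, and 1 of 6 was called higher in bulk EC, where 19.6% were. The median of the 6 was -0.47 against 0.02 for all genes. The cause of the trend was not tested.

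**Figure D3:**
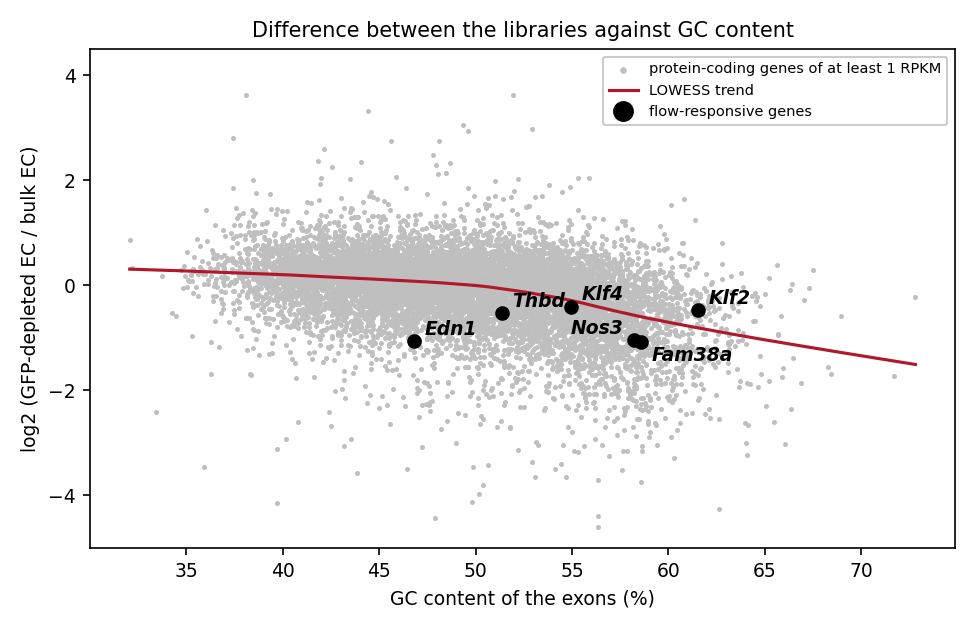
Log2 ratio of GFP-depleted EC over bulk EC (y axis) against GC content of the exons in percent (x axis) for 10382 protein-coding genes (grey), with the LOWESS trend (red) and the 6 flow-responsive genes (black). Klf2 lies above the trend and Edn1 1.15 log2 units below it.

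Other genes of flow sensing and response were compared by lists drawn from general knowledge, whose single counts include any of the 6 that belong to them. Of 107 genes with an entry in 8 pathway lists, the 6 left out, 7 (6.54%) were called higher in GFP-depleted EC, where 15.3% of all genes were, and 30 (28.0%) were called higher in bulk EC, where 23.6% were, with a median log2 ratio of -0.08. After GC subtraction the counts were 12 for GFP-depleted EC and 23 for bulk EC, with 16.0% and 19.6% of all genes called, and the median was -0.02. The list counts below are to be read against these shares of all genes. Among 21 flow sensors, the calls were 1 higher in GFP-depleted EC and 3 higher in bulk EC, and after GC subtraction 3 for GFP-depleted EC and 1 for bulk EC. Besides Fam38a, those in bulk EC were Plxnd1, a semaphorin receptor that also senses shear (15.5 in GFP-depleted EC, against 29.9 in bulk EC), and Gna11, a G protein subunit gene (62.8 in GFP-depleted EC, 96.5 in bulk EC). After GC subtraction neither passed 1.5 fold (log2 ratios -0.20 for Plxnd1 and -0.14 for Gna11). The potassium channel gene Kcnj2, named after its values were seen, was called higher in GFP-depleted EC (1.81 in GFP-depleted EC, 0.50 in bulk EC).

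In the pathway from MEK5 to MEF2 and in the cerebral cavernous malformation (CCM) complex, which restrains it, the calls among 18 genes were 0 for GFP-depleted EC and 5 for bulk EC, a number close to the share of all genes (23.6%), with 2 for GFP-depleted EC and 4 for bulk EC after GC subtraction. Mapk7, the gene of ERK5, was at 2.64 in GFP-depleted EC, against 9.77 in bulk EC, a fold of 3.70 (3.17 to 4.33). Ccm2 was at 16.8 in GFP-depleted EC, against 41.7 in bulk EC (2.49 fold), and the kinase gene Stk25 at 66.3 in GFP-depleted EC, against 99.8 in bulk EC. The other calls, named after their values were seen, were the histone deacetylase gene Hdac5 (1.45 in GFP-depleted EC, 4.33 in bulk EC) and Stk24 (2.13 in GFP-depleted EC, 4.06 in bulk EC). After GC subtraction Mapk7 (-1.25) and Ccm2 (-1.04) stayed past 1.5 fold and Stk25 (-0.43) did not. Of 13 Krüppel-like factors, 1 was higher by the rule in GFP-depleted EC and 3 were in bulk EC, and Klf13 differed most of those above 5 RPKM, at 15.0 in GFP-depleted EC, against 40.4 in bulk EC (2.68 fold). The call in GFP-depleted EC was Klf14, and Klf8 and Klf11 were the other calls in bulk EC, each under 5 RPKM in both libraries and named after the values were seen. After GC subtraction the Krüppel-like factors had 2 calls for GFP-depleted EC and 3 for bulk EC.

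Around Nos3, the nitric oxide pathway held 18 genes, of which 2 were higher by the rule in GFP-depleted EC and 3 were in bulk EC, both below the shares of all genes (15.3% and 23.6%). After GC subtraction the calls were 2 for GFP-depleted EC and 1 for bulk EC, where Spr had no GC value. Ddah2, whose enzyme degrades an inhibitor of nitric oxide synthases, was at 57.6 in GFP-depleted EC, against 136.5 in bulk EC (2.37 fold). Spr, needed for the cofactor tetrahydrobiopterin, was at 27.8 in GFP-depleted EC, against 58.9 in bulk EC (2.12 fold). Nos2, the inducible synthase gene (3.24 in GFP-depleted EC, against 1.87 in bulk EC), and Arg2, an arginase gene (2.06 in GFP-depleted EC, 0.79 in bulk EC), went the other way and were named after their values were seen. Of the 5 genes of the endothelin system, 0 were called higher in GFP-depleted EC and 2 were in bulk EC. Those 2 were Edn1 and the receptor gene Ednra (0.30 in GFP-depleted EC, against 1.32 in bulk EC). The converting enzyme genes Ece1 (130.1 in GFP-depleted EC, 103.5 in bulk EC) and Ece2 (15.7 in GFP-depleted EC, 13.1 in bulk EC) and the receptor gene Ednrb (14.4 in GFP-depleted EC, 16.4 in bulk EC) stayed within 1.5 fold in the deposited values. After GC subtraction Ece1 was called higher in GFP-depleted EC, at a log2 ratio of 0.66.

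Around Thbd, coagulation control had 14 genes, with 2 calls for GFP-depleted EC and 5 for bulk EC. Procr, the receptor that holds protein C for activation by thrombomodulin, was at 7.56 in GFP-depleted EC, against 15.7 in bulk EC (2.07 fold, 1.81 to 2.38). Plaur, the urokinase receptor gene, was at 6.71 in GFP-depleted EC, against 14.1 in bulk EC and Vwf, which encodes von Willebrand factor, at 9.10 in GFP-depleted EC, against 17.7 in bulk EC. Tfpi, an inhibitor of the tissue factor pathway named after its values were seen, was called higher in GFP-depleted EC (45.5 in GFP-depleted EC, 28.0 in bulk EC). Of 16 other genes known to be induced by shear, 1 was called for GFP-depleted EC and 7 were for bulk EC. Txnrd1, a redox enzyme gene, was at 22.5 in GFP-depleted EC, against 40.2 in bulk EC, the superoxide dismutase gene Sod1 at 1767 in GFP-depleted EC, against 2889 in bulk EC, and Palmd at 7.20 in GFP-depleted EC, against 4.70 in bulk EC. Of 8 genes linked to low or disturbed flow, 0 were called for GFP-depleted EC and 5 were for bulk EC, with Cyr61, a matricellular YAP target, at 37.4 in GFP-depleted EC, against 99.1 in bulk EC and the adhesion gene Icam1 at 20.3 in GFP-depleted EC, against 33.3 in bulk EC. Angpt2, a Tie2 ligand, was at 6.23 in GFP-depleted EC, against 4.83 in bulk EC. Ccl2, also called for bulk EC and named after its values were seen, was low (0.51 in GFP-depleted EC, 0.84 in bulk EC). The interval of its fold, 0.85 to 4.12, included 1. Of all genes, 15.3% were called for GFP-depleted EC and 23.6% for bulk EC. After GC subtraction the calls were 1 for GFP-depleted EC and 5 for bulk EC in the coagulation list, where Tfpi (log2 ratio 0.48) lost its call. The shear list then had 0 for GFP-depleted EC and 5 for bulk EC, and Palmd (0.44) and Sod1 (-0.49) were among those that lost theirs. The low flow list had 1 for GFP-depleted EC and 3 for bulk EC, and Icam1 (-0.36) was among those that lost their call.

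**Figure D4:**
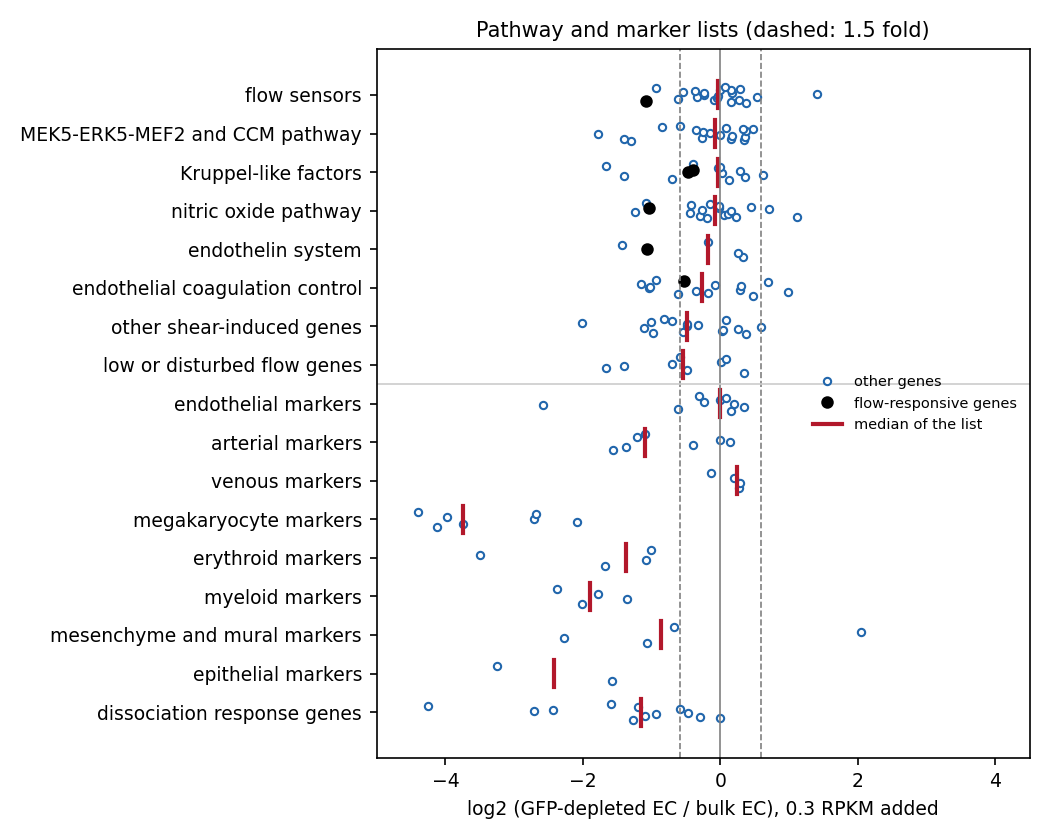
Log2 ratio of GFP-depleted EC over bulk EC (x axis) for the genes of each pathway list (upper rows) and marker list (lower rows), 1 point per gene, with flow-responsive genes in black and list medians in red. Dashed lines mark 1.5 fold, and the megakaryocyte markers have the lowest median, -3.75.

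Markers of several other cell types were also lower in GFP-depleted EC. Of 9 endothelial markers, 0 were called for GFP-depleted EC and 2 were for bulk EC, Egfl7 and the TGF-beta co-receptor gene Eng, and the summed level of the 9 was 1890 RPKM in GFP-depleted EC, against 2117 in bulk EC. Eng was at 10.2 in GFP-depleted EC, against 63.0 in bulk EC, Egfl7 at 566.8 in GFP-depleted EC, against 870.9 in bulk EC, and the sialomucin gene Emcn at 458.8 in GFP-depleted EC, against 360.3 in bulk EC. After GC subtraction the call of Egfl7 was lost (log2 ratio -0.08) and that of Eng stayed. Of the arterial markers 4 of 7 were called higher in bulk EC, Gja5, Hey1, Cxcl12 and Bmx, and the median log2 ratio of the 7 was -1.10. Efnb2 (41.0 in GFP-depleted EC, 37.2 in bulk EC) went the other way. Efnb2, Dll4 (10.2 in GFP-depleted EC, 13.5 in bulk EC) and Gja4 were not called in the deposited values. Most of the summed arterial level (390.8 in GFP-depleted EC, 427.3 in bulk EC) was Gja4 (312.7 in GFP-depleted EC, 313.5 in bulk EC). None of the 4 venous markers was called (sums 426.3 in GFP-depleted EC, 357.4 in bulk EC, mostly Aplnr at 357.3 in GFP-depleted EC, 294.7 in bulk EC). After GC subtraction the arterial marker Gja4 (0.61) and the venous marker Ephb4 (0.80) were called higher in GFP-depleted EC. All 7 megakaryocyte markers were called higher in bulk EC, and GFP-depleted EC had Gp6 listed at 0. Their summed level was 86.9 in GFP-depleted EC, against 1244 in bulk EC, and was mostly Pf4 (70.3 in GFP-depleted EC, 1112 in bulk EC). Also called higher in bulk EC were 4 of 4 erythroid (271.8 in GFP-depleted EC, 557.5 in bulk EC), 4 of 4 myeloid (10.7 in GFP-depleted EC, 33.3 in bulk EC, GFP-depleted EC had Lyz2 listed at 0) and 2 of 2 epithelial markers (4.03 in GFP-depleted EC, 15.5 in bulk EC). Their sums were mostly Hbb-y (269.8 in GFP-depleted EC, 543.7 in bulk EC), Fcer1g (8.70 in GFP-depleted EC, 22.7 in bulk EC) and Krt18 (3.99 in GFP-depleted EC, 12.5 in bulk EC). Klf1, Csf1r, Cdh1 and Epcam were listed but had no entry and are not counted. The lowest mean in the table was 0.50 RPKM, so genes such as Gp6, Lyz2 and Krt8 (0.04 in GFP-depleted EC, 2.92 in bulk EC) had entries only through bulk EC. Calls of such genes were fixed in advance. Of 4 mesenchyme and mural markers with an entry (Col1a1 and Pdgfrb had none), 1 was called for GFP-depleted EC, Lum (1.80 in GFP-depleted EC, 0.21 in bulk EC), and 3 were for bulk EC. Their summed level (14.4 in GFP-depleted EC, 29.1 in bulk EC) was mostly Acta2 (11.9 in GFP-depleted EC, 25.2 in bulk EC). Genes that respond to cell dissociation, a group with which Klf2 and Klf4 are often induced, had 0 of 12 calls for GFP-depleted EC and 9 of 12 for bulk EC. The shares of all genes called were 15.3% for GFP-depleted EC and 23.6% for bulk EC. After GC subtraction the calls of this list were 0 for GFP-depleted EC and 7 for bulk EC, with 16.0% and 19.6% of all genes called. Fosb, Dusp1 and Btg2 were not called in the deposited values. The sum of the 12 was 192.3 in GFP-depleted EC, against 391.3 in bulk EC, with Junb at 0.51 in GFP-depleted EC, against 15.2 in bulk EC, Ier2 at 10.6 in GFP-depleted EC, against 58.7 in bulk EC, and Zfp36 at 5.42 in GFP-depleted EC, against 17.0 in bulk EC. The part of these cell types and of the dissociation response in the levels of the 6 genes was not tested.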

How the data were processed

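RNA of 1 library of GFP-depleted EC and 1 of bulk EC was amplified with a SMART kit and sequenced in a shared HiSeq lane. The submitters' processing notes name mm9, BWA 0.5.7 and Cuffdiff, without their roles. The authors deposited 1 RPKM value per gene and library, and a fold column that was not used. The annotation release and the counting method, strand included, were not given in the sources used here. Of 12899 entries, 215 with a repeated symbol and a lower mean were dropped. The lowest mean in the table was 0.50 RPKM, so the minimum of 0.3 removed no gene.

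In features under 150 bases, values were multiples of 1 covered base (96.5% of 369 values within 0.15 of a whole number in GFP-depleted EC and 90.0% of 360 in bulk EC, where chance gives 30%). In longer features they clustered at multiples of 100 bases, which was taken as the read length. Read numbers per gene are approximate, since exon lengths came from GENCODE M1 (mm9). Of the genes, 12144 had a GC value. The GC trend was a LOWESS fit (span 0.3, statsmodels 0.14.6, Python 3.11.15) on protein-coding genes with a mean of at least 1 RPKM, and its script was tested on simulated data. Folds are plain ratios and log2 ratios include 0.3 RPKM, which understates the change of low genes. In each list with more than 7 entries, the 3 genes of at least 5 RPKM with the largest absolute log2 ratio were named. The genes, lists and alternatives were chosen with earlier results of these data known. Alternatives varied the pseudocount, minimum, threshold, scaling, GC trend, counting interval and gene type.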

Additional observations from a re-analysis of the deposited data

How the results depend on the processing

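No paired analysis was possible because 1 library per group leaves no pairs. The 6 log2 ratios kept their direction under a pseudocount of 1 or 0.1, median centring and quantile scaling, and all but Klf2 kept it after GC subtraction. A pseudocount added to both levels cannot turn a direction, and median centring moved each ratio by only 0.02 log2 units. These settings were therefore no check of direction. Quantile scaling gave -0.28 for Klf4, -0.92 for Nos3 and -0.96 for Fam38a. Subtraction of the GC trend gave 0.35 for Klf2, -0.12 for Klf4, -0.48 for Nos3, -0.48 for Fam38a and a median of -0.47. It left 1 of the 6 called higher in bulk EC, and 3 were called in every other setting run. It also gave 12 genes of the 8 pathway lists called higher in GFP-depleted EC in place of 7. A threshold of 2 fold gave 839 genes higher in GFP-depleted EC, against 1683 in bulk EC, and 3 and 17 in the pathway lists, since it passes fewer genes. When the whole counting interval had to pass 1.5 fold, 1054 genes and 4 pathway genes were higher in GFP-depleted EC. A pseudocount of 1 also left 4 such pathway genes. The minimum of 1 RPKM removed none of the 6, and no minimum removed no gene. With 1 library per group, depth limits only the counting error, and the spread between embryos is unknown.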
